A study of Mus musculus with 135 samples.

Results

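The genes described are *Wee1* and 9 mitotic regulators, *Top2a*, *Mki67*, *Aurka*, *Aurkb*, *Birc5*, *Plk1*, *Bub1*, *Anln* and *Cdc20*, followed across single haematopoietic stem cells (HSCs) to tell cells in S phase from cells in G2 or mitosis. They were chosen by name, and all 10 were found among the 15181 entries of the read count table. Each sample was 1 cell, sorted from bone marrow as LSK CD150+CD48− (Lin−Sca-1+c-Kit+, without the dye 7AAD) and captured on a C1 microfluidic chip, whose capture sites (A1 to H12) name the cells here. The young cells came from 1 Vwf-eGFP reporter mouse of 2 to 3 months and the old cells from 1 such mouse of 20 to 25 months, both C57BL/6 and both untreated as far as the labels say. The reporter marks cells with an active *Vwf* promoter. Whether a cell was eGFP+ was not used here.

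Wee1 is the kinase that keeps Cdk1 switched off by phosphorylating it, so that a cell does not enter mitosis before its DNA is replicated, and Cdc25 phosphatases reverse this mark. Once Cdk1 is active with cyclin A and cyclin B, Aurora A and Plk1 drive mitotic entry, Aurora B and survivin (*Birc5*) act together in the chromosomal passenger complex, Bub1 and Cdc20 work at the spindle checkpoint, and anillin (*Anln*) builds the contractile ring. Most of these genes are silenced in resting cells by the DREAM complex and are transcribed from late S phase to mitosis, whereas genes of DNA replication are driven earlier by E2F factors. Adult HSCs are known to be mostly quiescent.

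The promoters of the members were read for the elements of these waves. In RefSeq promoter windows (GRCm38.p6, 250 bases before and 50 bases from the transcript start), 8 of the 10 genes had an entry, all but *Wee1* and *Aurkb*. The letters of the cell cycle genes homology region (CHR, TTTGAA or TTCGAA, on either strand), where DREAM and its activating counterpart bind, were in 7 of the 8 windows, with *Birc5* the exception. They were in 21.7% of all 27025 genes with a window, in 30 of 39 genes of a list of other G2/M genes and in 7 of 35 genes of a list of S phase genes. A CCAAT box (CCAAT on either strand) was found in 6 of the 8 windows, all but *Anln* and *Birc5*, against 41.1% of all genes. It was in 30 of 39 other G2/M genes and in 25 of 35 S genes, so it did not set the members apart from the S genes. The E2F letters (TTTCCCGC, TTTCGCGC, TTTGCCGC or TTTGGCGC, on either strand) were in none of the 8 windows, in 3 of 39 other G2/M genes, in 14 of 35 S genes and in 2.60% of all genes. These matches describe the letters only. The 4 stretches below show members with both elements, in lower case 5′ to 3′ along the gene, with CHR and CCAAT letters in capitals (TTCAAA and ATTGG are the same elements read on the other strand).
Top2a: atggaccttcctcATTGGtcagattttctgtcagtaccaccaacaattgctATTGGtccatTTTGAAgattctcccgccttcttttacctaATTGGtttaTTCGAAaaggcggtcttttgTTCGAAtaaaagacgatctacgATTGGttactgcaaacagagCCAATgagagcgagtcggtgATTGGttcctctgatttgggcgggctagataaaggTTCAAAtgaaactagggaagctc
Mki67: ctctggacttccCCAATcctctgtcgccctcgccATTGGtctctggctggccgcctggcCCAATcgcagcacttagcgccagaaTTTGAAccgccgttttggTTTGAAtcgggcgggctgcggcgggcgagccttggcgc
Cdc20: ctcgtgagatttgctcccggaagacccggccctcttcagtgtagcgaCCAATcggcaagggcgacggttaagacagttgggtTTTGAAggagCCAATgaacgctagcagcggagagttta
Bub1: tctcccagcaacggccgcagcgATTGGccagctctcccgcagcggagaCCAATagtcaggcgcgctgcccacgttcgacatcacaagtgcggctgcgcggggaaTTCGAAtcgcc

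The *Top2a* stretch (chr11:99024190-99024429, minus strand, positions −240 to −1) held 4 CHR and 6 CCAAT matches. The *Mki67* stretch (chr7:135716440-135716579, minus strand, −200 to −61) held 2 CHR matches at −116 and −98 downstream of 3 CCAAT boxes. In *Cdc20* (chr4:118437324-118437443, minus strand, −100 to 20) a CHR at −18 lay between CCAAT boxes at −53 and −8. In *Bub1* (chr2:127831835-127831949, minus strand, −90 to 25) the CHR lay at position 15, after the transcript start, with CCAAT boxes at −68 and −42. The annotated genes begin 10 bases (*Top2a*) and 71 bases (*Mki67*) upstream of the start used in these windows.

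Of 61 young and 74 old cells, 52 and 62 passed the limits of the study and were used. Reads counted on genes ranged from 273236 to 5688706 per young cell (median 2798990) and from 276316 to 4086659 per old cell (median 2116024). A level is the mean over cells of log2(CPM + 1), where CPM is reads scaled to 1000000 counted in that cell, and a gene was called expressed in a cell with log2(CPM + 1) above 2. Although 46 site names occur in both ages, no 2 cells had identical counts. Cells of 1 mouse are not replicates, and there was 1 mouse per age, so no difference between ages has a replicate check and none was tested. The mice also differed in *Xist* (50 of 52 young and 8 of 62 old cells) and Y-linked genes (2 and 58 cells), so age, sex-linked expression and mouse cannot be told apart. The labels name no capture run, so a difference between runs cannot be told apart from these either. The HSC markers *Kit* (49 young and 61 old cells) and *Meis1* (52 and 62) were near universal, but not all 10 HSC markers were. *Slamf1* (CD150) was expressed in 9 young and 15 old cells, *Procr* in 11 and 24, *Tek* in 13 and 11 and *Ly6a* (Sca-1) in 28 and 43. *Cd48*, which the sort excluded, was expressed in 1 young and 0 old cells. Of markers of mature cells, *Mpo* was expressed in 2 young and 1 old cells and *Elane* in 0 and 1, although *Lyz2* was expressed in 43 and 43 and *Prtn3* in 38 and 59. The lymphoid markers *Cd79b* (12 and 16 cells), *Cd3d* (16 and 16) and *Nkg7* (10 and 15) were expressed in a minority of cells of each age. Intervals below are 95% exact (Clopper-Pearson for shares, Poisson for reads), cover counting error only, and do not cover the spread between mice. Where a count of 0 is said to allow a share, that limit is not an exact interval. It is 3 divided by the number of cells, an approximation that is rough for few cells.

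All 10 genes had a lower mean level in the old cells. The difference (old minus young, mean log2(CPM + 1)) was −1 or lower for 6 of the 10, while 4.49% of the 15014 genes with a read were lower by that much and 3.91% were higher. The median difference of the 9 mitotic regulators was −1.08, and that of all genes was −0.02. In the plot of the 10 genes by cell, a smaller share of old than of young cells lay above the limit for every gene, although for *Birc5* nearly all cells of both ages did.

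**Figure D1:**
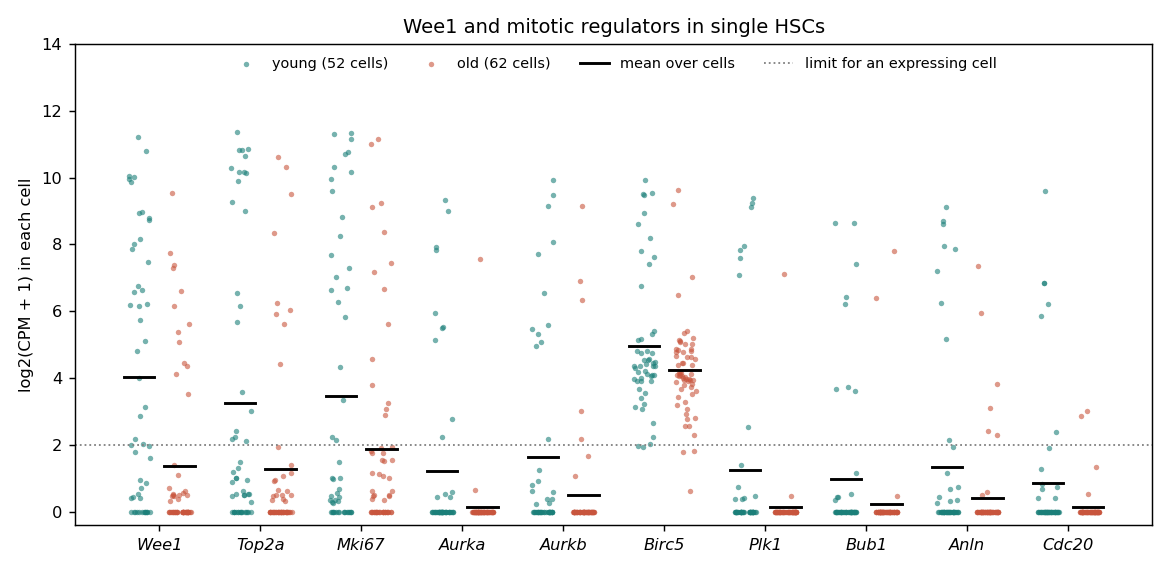
log2(CPM + 1) (y axis) of *Wee1* and the 9 mitotic regulators in each of 52 young (teal) and 62 old (orange) cells, with black bars at the mean and a dotted line at 2, the limit for an expressing cell. *Birc5* forms a band near 4 in nearly all cells, and for every gene the old mean lies below the young mean (difference −0.72 to −2.64).

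*Wee1* (chr7:110122059-110143299) had the largest difference of the 10. In young cells it ran from 0 through a median of 2.53 to 11.21 and in old cells from 0 through a median of 0 to 9.53. Expressing cells numbered 28 of 52 young (53.8%, 95% interval 39.5 to 67.8%) and 13 of 62 old (20.97%, 11.7 to 33.2%). The mean levels were 4.01 ± 3.84 (SD over 52 cells) and 1.37 ± 2.51 (SD over 62 cells), a difference of −2.64 that ranked 6th from the lowest of 15014 genes. Young and old cells overlapped, with silent cells in both. Summed over cells there were 36591 young reads (36217 to 36968) and 3357 old reads (3244 to 3473), or 9.42-fold more CPM in young cells, with at most 24.2% of the young and 38.9% of the old reads from 1 cell.

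*Top2a* (chr11:98992947-99024199), the topoisomerase that untangles replicated chromosomes, and *Mki67* (chr7:135689784-135716450), which coats mitotic chromosomes and is the standard proliferation marker, came next. *Top2a* had a median of 0.98 and a highest value of 11.35 in young cells and 0 and 10.61 in old cells, with 21 of 52 (40.4%, 27.01 to 54.9%) and 9 of 62 (14.52%, 6.86 to 25.8%) expressing and a difference of −1.98. *Mki67* had a median of 0.82 and a highest value of 11.34 in young cells and 0.46 and 11.15 in old cells, with 22 (42.3%, 28.7 to 56.8%) and 14 (22.6%, 12.9 to 34.97%) expressing and a difference of −1.60. The highest values were close in both ages, and the counts of expressing cells were not. Of the old *Mki67* reads, 40.6% came from cell C10, which expressed no other mitotic regulator except *Birc5*.

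The passenger complex pair differed in how many cells expressed them. *Aurkb* (chr11:69045624-69051664), its kinase, reached 9.94 in young and 9.15 in old cells with medians of 0, and was expressed in 12 young (23.1%, 12.5 to 36.8%) and 5 old cells (8.06%, 2.67 to 17.8%), a difference of −1.14. In the old cells, A5 alone held 1265 of 1757 *Aurkb* reads, which left 492 in the other 61 cells. *Birc5* (chr11:117849237-117855743), the survivin subunit, was expressed in 50 young and 59 old cells, with a read in every cell, and its lowest, median and highest values were 1.92, 4.37 and 9.93 (young) and 0.62, 4.09 and 9.63 (old).

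The *Birc5* values fell into a broad low band and a high tail. In cells that expressed none of the other 8 mitotic regulators, the median was 4.20 (1.92 to 5.42) in 21 young cells and 4.04 (0.62 to 5.35) in 42 old cells. In cells that expressed 4 or more of the other 8 it was 8.60 (6.75 to 9.93) in 11 young cells and lay at 6.47 and 9.21 in 2 old cells, so that in young cells these ranges did not overlap. The low band was even: among the 813 genes with a mean within 0.5 of that of *Birc5* in those 21 young cells, 9.35% had a smaller SD, and the median such gene was expressed in 61.9% of them against 20 of 21 for *Birc5* (6.67% of 824 genes in the 42 old cells, with *Birc5* in 39). The origin of these reads was not tested.

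*Aurka* (chr2:172356190-172370886) and *Plk1* (chr7:122159435-122169884), the kinases of mitotic entry, were expressed in several young cells and in 1 old cell. *Aurka* was expressed in 10 young cells (19.2%, 9.63 to 32.5%; highest 9.33) and 1 old cell (1.61%, 0.04 to 8.66%; 7.55), a difference of −1.08. *Plk1* was expressed in 8 young cells (15.4%, 6.88 to 28.1%; highest 9.40) and 1 old cell (7.13), a difference of −1.12. The old cell was C3 in both cases, with 428 of 429 *Aurka* and 319 of 320 *Plk1* reads, which leaves 1 read of each gene in the other 61 old cells. Their medians were 0 in both ages.

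The checkpoint genes *Bub1* (chr2:127800197-127831859), a kinase at unattached kinetochores, and *Cdc20* (chr4:118432901-118437343), the activator of the anaphase-promoting complex, were each expressed in few cells. *Bub1* was expressed in 8 young cells (highest 8.64) and 2 old cells (7.81 and 6.39), a difference of −0.75, and C3 held 512 of the 776 old reads (65.98%). *Cdc20* was expressed in 6 young cells (11.5%, 4.35 to 23.4%) and 2 old cells (3.23%, 0.39 to 11.2%), a difference of −0.72. Young cell G11 held 1679 of 2721 *Cdc20* reads (61.7%), and the old cells together had 34 reads (23.5 to 47.5), of which H12 held 17. *Anln* (chr9:22331214-22389211) was expressed in 9 young (highest 9.13) and 6 old cells (highest 7.36), a difference of −0.90, and D4 held 49.2% of its 258 old reads.

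The number of mitotic regulators expressed set a small group of cells apart. Of the 9, 5 or more were expressed in 11 of 52 young cells (21.2%, 11.1 to 34.7%) and in 2 of 62 old cells (3.23%, 0.39 to 11.2%). In young cells 2 cells expressed all 9 (G5 and G11), 1 cell 8, 5 cells 7, 1 cell 6 and 2 cells 5. The 2 old cells were C3 with 8 and D4 with 5. The young and old counts were unequal in every setting tried, at 9 to 19 young cells against 1 to 4 old cells. Of the remaining cells, 20 young and 39 old cells expressed *Birc5* alone, and 1 young and 3 old cells expressed none of the 9. Leaving *Birc5* out and asking for 4 of the other 8 gave 11 and 2 cells again. The 11 young cells expressed a median of 4917 genes against 3862 in the other 41, with medians of 2713358 and 2922640 reads. Of the 21 cells that did not pass the study limits, none expressed 5 or more.

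**Figure D2:**
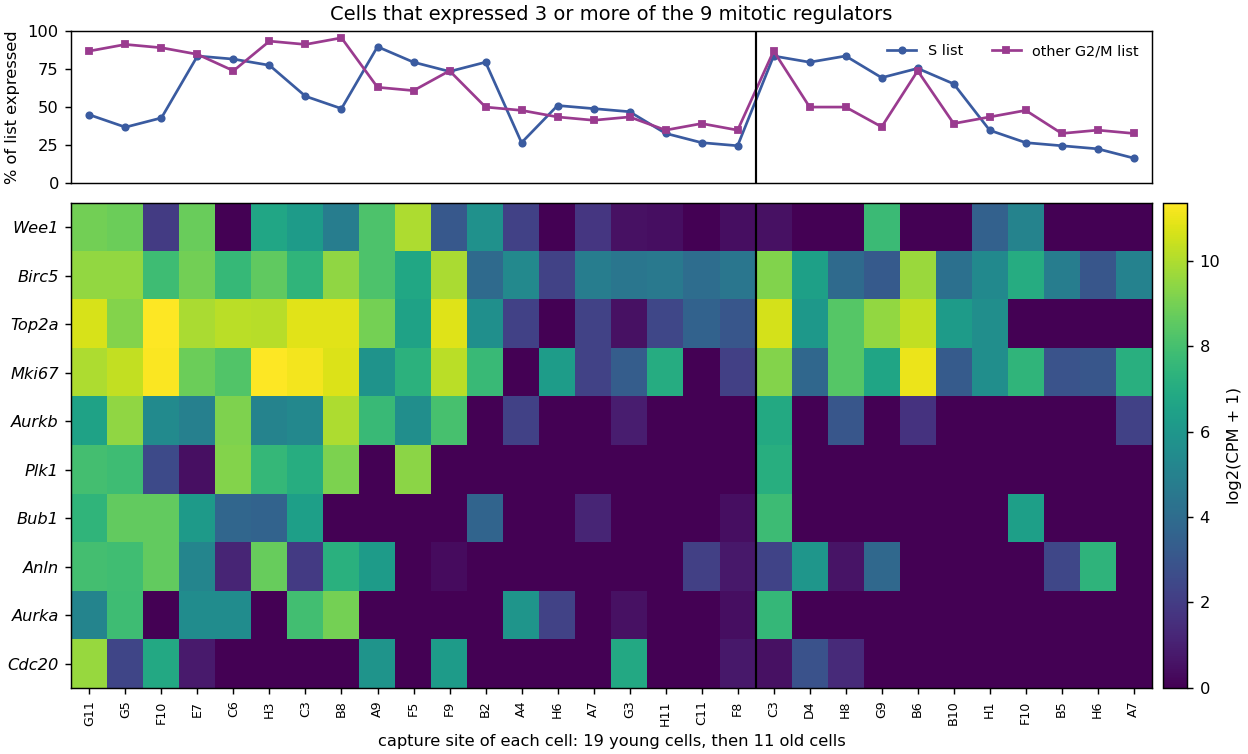
The 19 young and 11 old cells that expressed 3 or more of the 9 mitotic regulators, 1 per column, with log2(CPM + 1) of each gene as colour and, above, the percentage of the S list (blue) and of the other G2/M list (purple) that each cell expressed. The leftmost young cells, G11, G5 and F10, have the S list at 36.7 to 44.9% and the other G2/M list at 87.0 to 91.3%, and of the old cells C3 expresses 8 regulators and D4 5.

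The S list (49 measured genes of DNA replication, such as *Mcm6*, *Uhrf1* and *Prim1*) splits these cells further. At a limit of 50% of the list, 7 of the 11 young cells expressed 57.1 to 89.8% of it and 4 (G11, G5, F10 and B8) expressed 36.7 to 48.98%. The 4 cells nevertheless expressed 87.0 to 95.7% of 46 other G2/M genes, against 60.9 to 93.5% in the 7. Another 7 young and 5 old cells expressed at least 50% of the S list (up to 79.6% and 83.7%) with 4 or fewer mitotic regulators. Both old cells with 5 or more regulators lay above the S limit, at 83.7% and 79.6%, and no old cell of 62 (interval 0 to 5.78%) combined 5 or more regulators with an S list share under the limit.

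These ranges are counts with limits, not cell types. In young cells 6 lay between 45 and 55% of the S list and 4 expressed 4 or 5 regulators, and in old cells 0 and 3 did. The 4 young cells under the S limit became 1 with the limit at 40%, since 3 of them expressed 42.9 to 48.98% of the list. The number was also 1 with expression counted above 1 in place of 2. The order of the cells along the S list does not depend on the S limit, although the shares themselves were counted at the expression limit of 2. The plot of the S list against the regulators shows G5 with all 9 regulators at 36.7% and A9 with 6 at 89.8%.

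**Figure D3:**
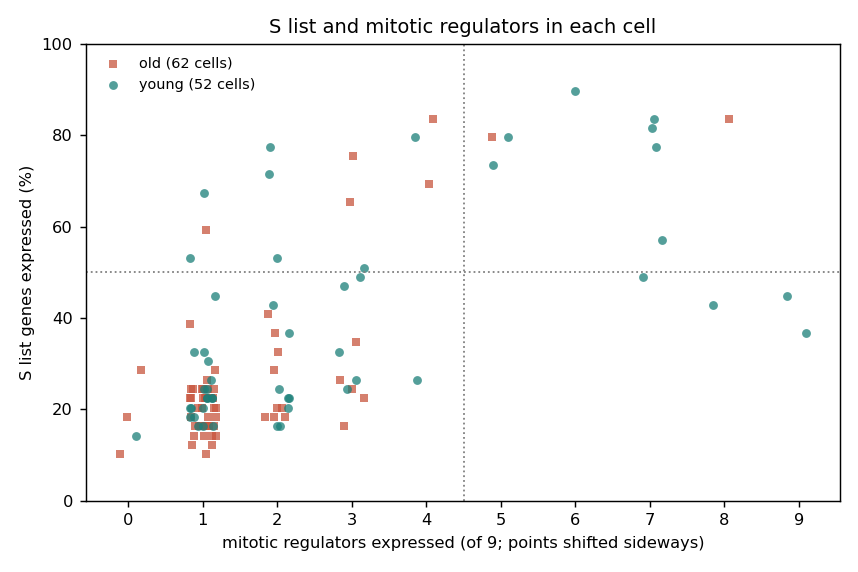
Percentage of the S list expressed (y axis) against the number of the 9 mitotic regulators expressed (x axis) in 52 young cells (teal circles) and 62 old cells (orange squares), with dotted lines at the limits of 50% and 5 regulators. Most cells lie at 1 or 2 regulators and under the S limit, and the lower right corner holds 4 young and 0 old cells.

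Cyclins that were not among the genes used for the grouping were compared across the same cells. *Ccna2* and *Ccnb2* were also among the genes most like the mean of the 9 regulators over these cells (r 0.89 and 0.85). Their counts are therefore a description and not an independent check of the grouping. *Ccna2* (cyclin A2, active from S phase on) was on in each of the 13 cells, young or old, with 5 or more regulators and in 0 of the other 101 (a count of 0 allows a share of up to 2.97%). The 11 young cells lay at 4.07 or higher (median 7.31), whereas the 2 old cells were just over the limit, at 2.16 and 2.27, and would not count at a limit of 4. *Ccnb1* (cyclin B1, the partner of Cdk1 at mitotic entry) was expressed in 4 of 4 young cells with many regulators and a low S list share, at 8.31 to 11.20, and in 2 of the 7 with a high S list share. It was also on in 5 of the other 41 young cells, 4 of them under the S limit, and in 0 of the 2 old cells with 5 or more regulators, against 9 of the other 101 cells of both ages. *Ccnb2* was expressed in 4 of 4 and 5 of 7, and in 0 of the other 41 young cells. In old cells it was on in 1 of the 2 with 5 or more regulators and in 2 of the other 60, at up to 9.09. In the 7 young cells with a high S list share and few regulators, neither *Ccna2* nor *Ccnb2* was expressed and *Ccnb1* was expressed in 1. A count of 0 in 7 cells allows a share of up to 42.9%.

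Apart from *Birc5*, which most cells expressed, *Top2a* and *Mki67* were on in more of the S-high cells than the other mitotic regulators, as a description of the genes that made the grouping. In the 7 young cells with a high S list share and few regulators, *Birc5* was expressed in 6, *Top2a* in 4, *Mki67* in 3, *Aurka* and *Bub1* in 1 each, and *Aurkb*, *Plk1*, *Anln* and *Cdc20* in 0. Among these calls, those of *Aurka* and *Birc5* in H6 (273236 reads) rest on 1 read each, which in so shallow a cell passes the limit. In the 7 with many regulators and a high S list share, *Top2a*, *Mki67* and *Aurkb* were expressed in all 7, *Plk1* and *Bub1* in 4, *Aurka* and *Anln* in 3 and *Cdc20* in 2. In the 4 with a low S list share, *Plk1* and *Anln* were in all 4 and *Aurka*, *Bub1* and *Cdc20* in 3. The 5 old cells with a high S list share and few regulators also had *Top2a* and *Mki67* in 4 each, *Aurkb* and *Anln* in 1, and *Aurka*, *Plk1*, *Bub1* and *Cdc20* in 0.

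Pairwise counts in young cells were nested for some of the genes. All 12 *Aurkb* cells expressed *Top2a* and 11 of them *Mki67*, whereas 12 of 21 *Top2a* cells expressed *Aurkb*. In A4 (281907 reads) the *Aurkb* and *Top2a* calls rest on 1 read each, which in so shallow a cell passes the limit of 2. All 8 *Plk1* cells expressed *Top2a*, *Mki67* and *Aurkb*, and all 8 *Bub1* cells expressed *Top2a* and *Mki67*. *Plk1* and *Bub1* were in turn expressed in 8 each of the 21 *Top2a* cells. *Cdc20* was expressed together with *Mki67* in all 6 of its cells and with *Aurka* in only 2. *Aurka* was not nested, since 7 of its 10 cells expressed *Top2a*, 7 *Mki67*, 7 *Aurkb* and 5 *Plk1*, and *Anln* was partly so, with *Top2a* in 8 and *Mki67* in 7 of its 9 cells.

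**Figure D4:**
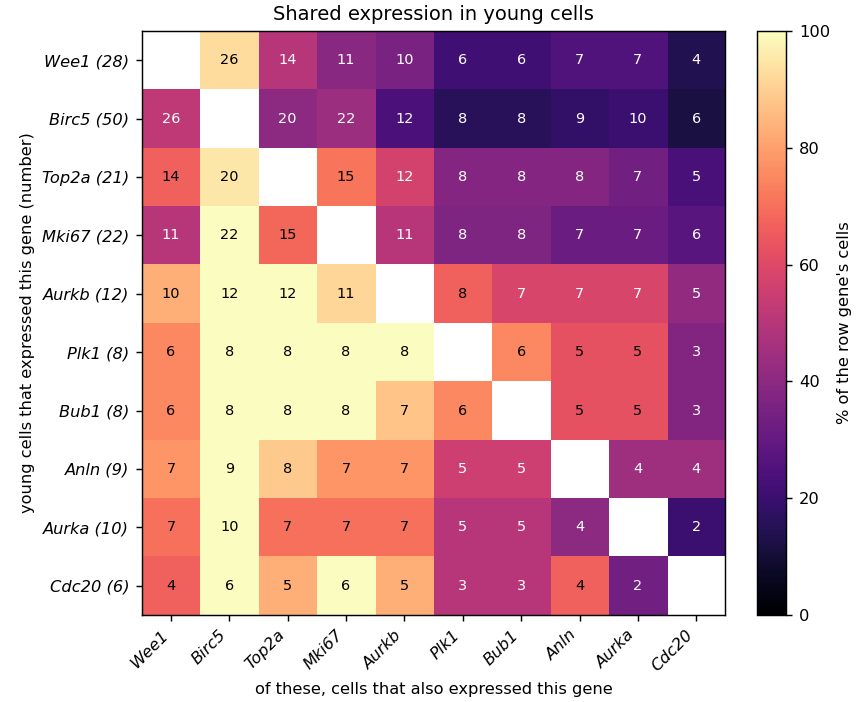
For each gene in a row (with its number of expressing young cells), the number of those cells that also expressed the gene in the column, coloured by the percentage of the row gene's cells. The rows of *Aurkb*, *Plk1* and *Bub1* are bright under *Top2a* and *Mki67*, while the reverse cells are darker (12 of 21 *Top2a* cells with *Aurkb*, 8 of 21 with *Plk1*).

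Over the 52 young cells, the 36 pairs of mitotic regulators had a median Pearson r of 0.59 on log2(CPM + 1), from 0.08 (*Aurka* with *Cdc20*) to 0.88 (*Aurkb* with *Birc5*), and 25 pairs were above 0.5. Over the 62 old cells the median r was 0.31 and 7 pairs were above 0.5, with the highest r of 0.99 between *Aurka* and *Plk1*. That old value rests on C3, the only old cell that expressed either gene, and without C3 the median r of the old cells was 0.0032. Mean level of the 9 regulators followed the share of other G2/M genes (r 0.95 young, 0.84 old) more closely than the share of S genes (0.54 and 0.76). By gene, r with the S list share was highest for *Top2a* (0.66 young, 0.87 old) and was 0.16 and 0.40 for *Aurka*. All these values are descriptions over cells that share a mouse. The mean level had an r of 0.60 and 0.52 with the number of genes a cell expressed, and of −0.09 and −0.11 with its reads.

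High expression also occurred outside any programme. *Mki67* stood at 10.72 in young cell A10 and 11.15 in old cell C10, *Top2a* at 10.29 in young E2, *Aurka* at 9.33 in young F6, *Anln* at 9.13 in young B3 and *Aurkb* at 9.15 in old A5. Each of these cells expressed none of the other regulators except for *Birc5*, and their S list shares were 16.3 to 22.4%. No young cell expressed *Aurkb*, *Plk1*, *Bub1* or *Cdc20* in this isolated way. Old cell B6 was intermediate, with *Top2a* at 10.32, *Mki67* at 11.004 and *Birc5* at 9.63, 75.5% of the S list and 73.9% of the other G2/M list, but none of the remaining 6 regulators above the limit.

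*Wee1* followed the mitotic regulators only weakly. Its r with the 9 regulators had a median of 0.22 (0.06 to 0.30) across young cells and −0.01 (−0.12 to 0.11) across old ones, and the r of *Wee1* with the S list share was 0.24 and 0.05. It was expressed in 9 of 11 young cells with 5 or more regulators (81.8%, 48.2 to 97.7%) and in 19 of the other 41 (46.3%, 30.7 to 62.6%). In old cells it was expressed in neither of the 2 and in 13 of the other 60 (21.7%, 12.1 to 34.2%). The highest young values lay in cells without the programme, such as F2 at 11.21.

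**Figure D5:**
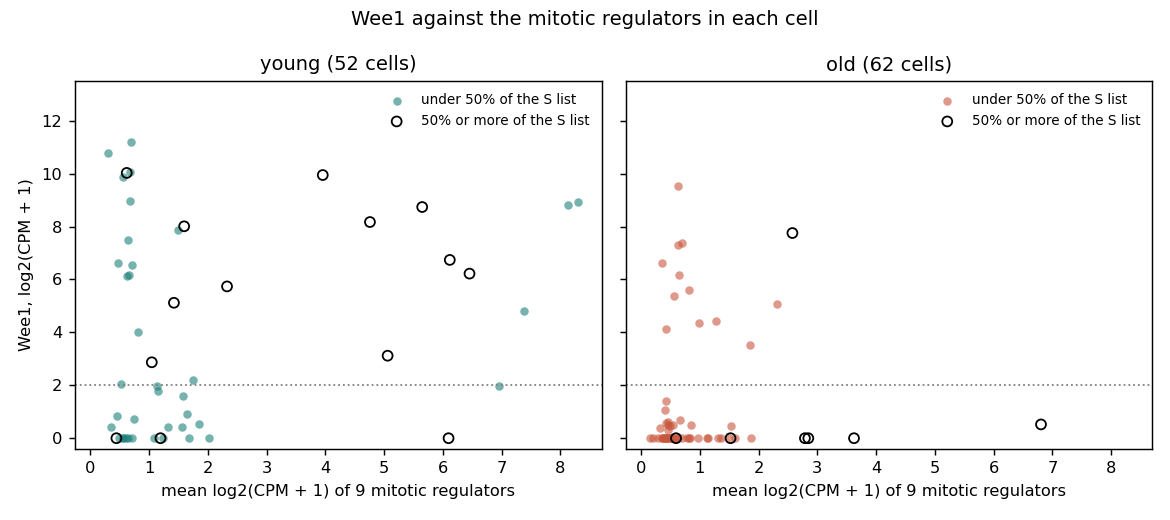
*Wee1* (y axis, log2(CPM + 1)) against the mean log2(CPM + 1) of the 9 mitotic regulators (x axis) in 52 young (left) and 62 old (right) cells, with open circles for cells that expressed 50% or more of the S list and a dotted line at 2. Cells with high *Wee1* occur at both ends of the x axis in young cells, and 1 of the 7 open circles in old cells lies above the line.

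The age difference of *Wee1* was also present away from the cells with many regulators. In cells with 0 to 4 regulators its mean level was 3.45 in 41 young and 1.41 in 60 old cells, a difference of −2.04. In cells under 50% of the S list the difference was −2.13, and with both conditions 14 of 34 young and 12 of 55 old cells expressed it. Within cells at or above 50% of the S list it was expressed in 11 of 14 young (78.6%, 49.2 to 95.3%) and 1 of 7 old cells (14.3%, 0.36 to 57.9%). Thinning every cell to 250000 reads gave 31 young and 14 old expressing cells. At that depth 1 read passes the limit of 2, so these calls are not like for like with those in deeper cells. The only young cell that expressed none of the 9 regulators had *Wee1* at 10.79.

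The other genes around Cdk1 were mostly lower in old cells as well. Of 16 measured genes of the Cdk1 switch (Cdk1, its cyclins, Cdc25 phosphatases, kinases and their regulators), 7 were lower by at least 1 (4.49% of all genes were) and 0 were higher by that much (3.91% of all genes), with a median of −0.92. *Cdk1* itself was expressed in 21 young and 7 old cells (−1.77), *Cks1b* in 26 and 17 (−1.68), *Cks2* in 24 and 11 (−1.65), *Ccna2* in 11 and 2 (−1.61) and *Ccnb1* in 11 and 4 (−1.49). *Pkmyt1*, the other kinase that inhibits Cdk1, was expressed in 6 young and 3 old cells (−0.39). It was on in 4 of the 7 young cells with many regulators and a high S list share and in 0 of the 4 with a low share, where a count of 0 allows up to 75.0%. *Cdc25c*, the opposing phosphatase, was on in 4 of 7 and 4 of 4 of the same cells and in 12 young and 3 old cells in all (−1.17). *Pkmyt1* and *Cdc25c* were named after their values had been seen.

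The lists around the other members had medians below 0 as well, between −0.76 and −0.99. Beside the 4.49% of all genes, 2 of 4 measured genes on a list around the passenger complex were lower by at least 1. These were borealin (*Cdca8*, −1.57) and shugoshin (*Sgol1*, −1.27, not a subunit of the complex), while the scaffold *Incenp* was at −0.36. Of 11 genes of the spindle checkpoint and anaphase-promoting complex, 3 were lower by at least 1 (*Casc5* −1.78, *Ttk* −1.25 and *Bub1b* −1.02), and 3 were above 0. Of 7 cytokinesis genes, 2 were (*Kif23* −1.75 and *Prc1* −1.15). The S list had 22 of 49 lower by at least 1 (median −0.95), led by *Uhrf1* (−2.49), *Prim1* (−2.34) and *Mcm6* (−2.27), and the other G2/M list 22 of 46 (median −0.99), led by the lamin B receptor *Lbr* (−2.20). No gene of these lists was higher by at least 1. The lists share genes, so their counts are not separate. *Kif23*, and *Cdk1* and *Cks1b* of the Cdk1 switch, for example, were also on the other G2/M list.

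Of 13 genes of the DREAM complex and FoxM1, which regulate this transcription wave, 1 was lower by at least 1, *Rbl1* (p107) at −1.68, a count near the 4.49% of all genes, and the median was −0.35. *Mybl2* was expressed in 6 young and 1 old cells (−0.90) and *Foxm1* in 7 and 3 (−0.79), of which 4 and 6 of the young cells had 5 or more mitotic regulators. *Rbl2* (p130), the pocket protein of resting cells, was at 0.68. Stem cell markers differed in both directions, with *Gata2* at 2.39, *Ly6a* at 1.55 and *Mecom* at −0.998. *Cd34*, which rises as HSCs become progenitors, was at −1.24 and was expressed in 28 young and 23 old cells.

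Markers of stem cells and progenitors were compared between young cells with many regulators and the rest. All 11 expressed *Kit*, 0 expressed *Cd48*, 1 expressed *Flt3* and 6 expressed *Cd34*, against 38, 1, 4 and 22 of the other 41. *Slamf1*, which encodes CD150, was expressed in 4 and 5. The summed log2 level of the 3 progenitor markers had a median of 4.92 (0 to 17.8) in the 11 and 3.92 (0 to 20.5) in the 41, and the ranges overlapped. In the 2 old cells with 5 or more regulators, both expressed *Kit* and *Nkg7*. Their summed log2 level over 2 T and NK cell markers was 8.28 and 11.6, against a median of 1.76 (0 to 10.8) in the other 60 old cells, and over 6 megakaryocyte markers 15.8 and 18.5, against 8.99 (0 to 44.2). The part of these transcripts in the old counts was not tested.

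The genes most like the mean of the 9 regulators over all 114 cells, among 9368 genes expressed in at least 10% of them, were *Casc5* (r 0.91), *Ccna2* (0.89), *Ccnb2* (0.85), *Neil3* (0.85), *Cdca8* (0.84), *Pbk* (0.83), *Nusap1* (0.83), *Kif22* (0.82), *C330027C09Rik* (0.81) and *Tacc3* (0.79). Within young cells their r was 0.78 to 0.94 and within old cells 0.25 to 0.77. *Casc5*, a kinetochore scaffold, was expressed in 12 of the 13 cells with 5 or more regulators and in 3 of the other 101, and so was *Neil3*, a DNA glycosylase. Both were picked for their r with the same regulators over the same cells, so these counts follow largely from that choice. For *Wee1* the 10 best values were weak: *Ccdc12* (0.39), *Ccna2* (0.36), *Xist* (0.36), *Dnmt3a* (0.35), *Asf1b* (0.35), *Ndufa4* (0.34), *Rdx* (0.34), *Mcm4* (0.34), *Casc5* (0.34) and *Erdr1* (0.33). *Xist* and *Erdr1* differed between the mice, and within ages their r with *Wee1* was −0.01 and −0.09 in young and 0.16 and −0.13 in old cells. *Ccdc12* (0.45 in young and 0.30 in old cells) and *Mcm4* (0.49 and 0.08) had the same sign in both ages. *Ccna2* (0.34 and −0.08) and *Asf1b* (0.38 and −0.10) did not.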

How the data were processed

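Complementary DNA from single HSCs was sequenced as 51 base single reads. The authors mapped them to mm10 with TopHat2 2.0.10, kept 1 alignment per read, ran rpkmforgenes over RefSeq genes and deposited raw counts, and whether counting used strand is not given in the sources used here. Of 135 cells, 114 passed the limits of the study (500000 mapped reads, 10% mitochondrial reads and 3000 detected genes), as flagged in its supplementary data. The range of reads per cell limits the precision of low counts.

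CPM used each cell's total over 15181 entries, 21 of which join several genes. The members and lists were chosen with earlier results of these data known. Named genes are the 10 members, at most 5 per list with the largest difference, the 10 most like each profile, and cells holding over 50% of a member's reads. Other genes and cells in the text, such as *Meis1*, *Slamf1*, *Pkmyt1*, *Cdc25c*, C10, D4 and H12, were chosen after their values were seen. Correlations are Pearson's r without p. Positions and promoters are from RefSeq (GRCm38.p6). TMMwsp factors came from edgeR 4.0.16 and poscounts factors from DESeq2 1.42.0, as alternatives only, and Python 3.11.15, pandas 2.3.3, numpy 2.4.6 and scipy 1.17.1 gave the rest. The steps were tested on simulated data.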

Additional observations from a re-analysis of the deposited data

How the results depend on the processing

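Over 20 settings, 127 of 156 alternative values stayed close to those reported and 29 moved. Close meant that a difference moved by under 1.5-fold as a ratio, a count by at most 1.5 times or an r by under 0.1. No difference between ages changed sign, and counts have no sign to change. The median r of *Wee1* with the regulators in old cells went from −0.01 to 0.005 when cells outside the study limits were included. That change of sign was counted as close. With a pseudocount of 0.1 CPM the difference was −1.76 for the median of the 9 mitotic regulators and −3.79 for *Wee1*, and as ratios of summed counts −2.14 and −3.24. In cells with 0 to 4 regulators, a choice made after seeing the data, *Wee1* was at −2.04. Young cells with 5 or more regulators numbered 19 when 1 read sufficed, and their old counterparts 1 with TMMwsp factors, poscounts factors, a limit above 4 or a minimum of 6 regulators, and 4 with a minimum of 4. All of these old cells lay at or above the S limit. When 1 read sufficed, 17 young cells combined 5 or more regulators with a high S list share and 2 with a low one, and 13 young and 8 old cells had a high share with fewer regulators. Young cells with many regulators and a low S list share numbered 1 with an expression limit of 1 or an S limit of 40%. Young cells with a high share and few regulators numbered 4 with an expression limit of 4 or an S limit of 60% and 11 with an S limit of 40%. Old ones numbered 3 among cells with at least 1000000 reads or with a minimum of 4 regulators. The median r of the old cells was 0.0032 without C3, which also held the most reads of the regulators. The causes of these shifts were not tested, beyond what each setting leaves out.

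In depth, the old *Cdc20* value rests on 34 reads. No paired analysis was possible because each age was 1 mouse, with no replicate to leave out and no test.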
